A study of Mus musculus with 20 samples.

Results

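The genes of 6 secreted proteins that monocytes are known to make were followed through 3 mouse bone marrow populations: fibronectin (Fn1), versican (Vcan), thrombospondin-1 (Thbs1), the A chain of coagulation factor XIII (F13a1), coagulation factor X (F10) and the TGF-beta-induced matrix protein (Tgfbi). These 6 genes were chosen by exact symbol in the platform annotation, out of 22180 genes with a probe set. Each has 1 probe set, so the rule that would keep the brightest of several was not needed. No measured value entered the choice of a probe set, but the genes were named when results of the same arrays, among them the falls of Fn1 in fresh cells, were already known. What follows therefore describes them and is no independent evidence. The p-values below come from a test over all 16638 genes that passed a filter on dim signal.

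Expression was measured on 20 single-channel arrays, and the mice were female with a C57BL/6 background. Fresh sorted cells were common myeloid progenitors (CMPs), the branch point before the erythroid and the granulocyte-monocyte lines, and granulocyte-macrophage progenitors (GMPs), their descendants on the granulocyte-monocyte side. Cells without lineage markers (Lin-) were first cultured for 12 h in 10 ng/ml of M-CSF, the growth factor of macrophages. Each population came from wild-type mice (WT) and from CreER-Rptor-flox/flox mice, which carry CreER and floxed alleles of Rptor and are called Rptor here. Rptor encodes Raptor, the scaffold of the nutrient-sensing kinase complex mTORC1. There were 3 arrays per genotype for CMPs and GMPs and 4 for Lin- + M-CSF cells. Age, the promoter that drives CreER, any inducer, its timing and the Cre status of the WT mice are not given in the sources used here. Whether replicates are separate animals is not stated either, so the p-values below measure only how these samples spread, and that spread may be technical. All Lin- cells were cultured and no CMP or GMP was, so culture and cell population cannot be told apart.

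Fibronectin and versican form part of the provisional matrix that is laid down in wounds, fibronectin as an adhesive glycoprotein bound by integrins and versican as a large chondroitin sulfate proteoglycan. Factor X is cleaved to the protease that makes thrombin, and factor XIII is the transglutaminase that cross-links fibrin and joins fibronectin to the clot. Monocytes and macrophages make F13a1, and inflammatory monocytes are known for high Fn1, Vcan, Thbs1 and F10, while Thbs1 is also a platelet granule protein.

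Values are log2 probe set signals, and levels of different probe sets are not set against each other. Array medians lay between 4.76 and 4.91, and every pair of arrays within a group correlated at 0.978 or higher over probe sets. Arrays spread more around their group means in Lin- + M-CSF cells (root mean square 0.171 to 0.236) than in fresh cells (0.109 to 0.168). The Rptor probe set itself averaged 8.64 in WT CMPs (SD 0.11, n = 3) and 8.34 in Rptor CMPs (SD 0.13, n = 3), and the genotype difference did not pass in any population (limma adjusted p = 0.163, 0.465 and 0.305). Whether its probes lie in the floxed part was not examined, so it checks no label. The group means of 10 of 10 markers of granulocyte-macrophage progenitors stood above the typical array median in all 6 groups. Monocyte and erythroid markers with a probe set also stood above it in fresh cells of both genotypes, so this does not tell cell types apart. Lymphocyte markers, which a Lin- gate should remove, averaged 6.38 to 6.90 per array in Lin- + M-CSF cells against 5.27 to 5.59 in fresh cells, over 8 of 9 genes with a probe set. Mature neutrophil markers averaged 11.49 on WT Lin- + M-CSF replicate 3 and 10.06 to 10.42 on the other 3 arrays of that group, so the results in culture were also computed without that array.

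In cultured Lin- cells the genotype difference was large for both matrix glycoproteins: Fn1 was 33.7-fold lower in Rptor than in WT cells, and the measured Vcan signals differed 22.6-fold. The Vcan signal of the Rptor cells lay under the filter on dim genes, so that its fold can be too small. Tgfbi was 2.68-fold and F13a1 1.73-fold lower, whereas F10 and Thbs1 did not pass the test. In fresh cells Fn1 was lower in Rptor CMPs and GMPs too, and Thbs1 was higher in both, by 6.21-fold in GMPs. F10 did not pass in any genotype comparison of the fit with equal array weights. Without WT replicate 3 the differences in culture were -4.91 for Fn1, -4.59 for Vcan, -1.37 for Tgfbi, -0.81 for F13a1, 0.06 for F10 and 0.30 for Thbs1, on the same side of the test in each case. The other comparisons of the 6 genes that use this array also kept their direction and side, with Thbs1 in WT culture 3.08 above WT CMPs and 2.47 above WT GMPs, and its departure from CMPs, which did not pass, at -0.70 in place of -0.39. Bulk arrays cannot tell fewer cells of a type from less RNA per cell, here and for every result below.

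**Figure D1:**
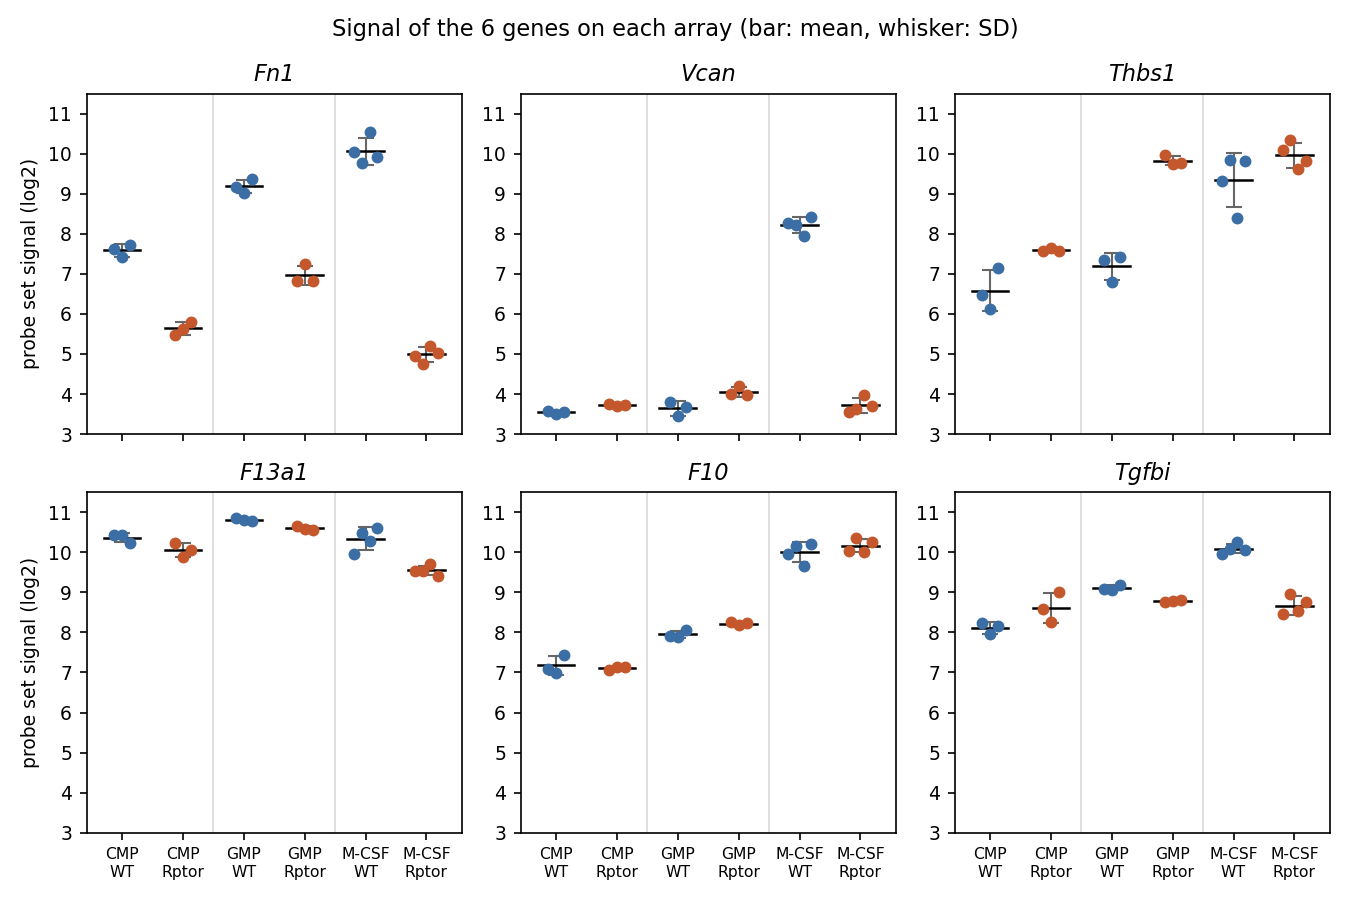
Log2 probe set signal of the 6 genes (vertical axis) on each of the 20 arrays, by population and genotype, WT in blue and Rptor in orange, with the group mean as a bar and the SD as a whisker. Vcan stands at 7.95 to 8.43 on the 4 WT Lin- + M-CSF arrays and at 3.45 to 4.20 on the other 16 arrays, and Fn1 is lower on every Rptor array than on any WT array.

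RefSeq promoter sequences (GRCm38.p6) were at hand for 4 of the 6 genes, and the 250 bases before each start are shown because 3 of these genes fell together in cultured Rptor cells and the fourth, F10, did not. They are Vcan (chr13:89742513-89742762, minus strand), Tgfbi (chr13:56609336-56609585, plus strand), the first of 2 starts listed for F13a1 (chr13:37050245-37050494, minus strand) and F10 (chr8:13037058-13037307, plus strand). Each is written 5′ to 3′ in the direction of its gene, in lower case, with matches to 7 short motifs in capitals.
Vcan: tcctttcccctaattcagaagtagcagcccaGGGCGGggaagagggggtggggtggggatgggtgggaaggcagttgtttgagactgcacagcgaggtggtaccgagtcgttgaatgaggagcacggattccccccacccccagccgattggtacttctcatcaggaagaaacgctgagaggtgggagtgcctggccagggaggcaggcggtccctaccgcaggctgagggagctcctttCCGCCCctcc
Tgfbi: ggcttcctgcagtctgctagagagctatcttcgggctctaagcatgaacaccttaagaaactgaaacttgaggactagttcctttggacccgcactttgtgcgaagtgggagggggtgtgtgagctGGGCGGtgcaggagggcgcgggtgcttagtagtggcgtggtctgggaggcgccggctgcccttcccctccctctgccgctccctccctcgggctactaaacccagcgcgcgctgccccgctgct
F13a1: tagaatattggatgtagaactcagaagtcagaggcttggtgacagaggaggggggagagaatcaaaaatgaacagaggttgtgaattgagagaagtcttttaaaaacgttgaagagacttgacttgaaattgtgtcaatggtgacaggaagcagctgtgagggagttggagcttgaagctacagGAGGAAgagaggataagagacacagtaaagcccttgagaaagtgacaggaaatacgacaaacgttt
F10: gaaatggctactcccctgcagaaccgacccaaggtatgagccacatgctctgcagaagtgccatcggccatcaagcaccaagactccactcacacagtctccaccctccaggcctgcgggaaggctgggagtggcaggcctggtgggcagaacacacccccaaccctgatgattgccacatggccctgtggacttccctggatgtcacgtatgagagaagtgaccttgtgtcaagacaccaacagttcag
The motifs were searched on both strands: the PU.1 core GAGGAA, C/EBP TTGCNNAA (whose reverse complement TTNNGCAA is the same motif), AP-1 TGANTCA, the cAMP element TGACGTCA, the SP1/KLF box GGGCGG, the TATA box TATAAA and the E-box CACGTG. Vcan held the SP1/KLF box at 2 places, beginning 219 and 10 bases before the start, and Tgfbi held it once, at 124. Of all 32851 windows of this length, 32.7% held that box. F13a1 held the PU.1 core once, 66 bases before the start, as did 23.3% of windows, and no matches overlapped. F10 and the second F13a1 start held none of the 7 in this window. A match here is a run of letters and not a bound site.

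Fn1, the adhesive ligand of several integrins, had WT levels in the order Lin- + M-CSF, GMP, CMP. Its 3 WT CMP arrays read 7.62, 7.42 and 7.72, and its 3 Rptor CMP arrays 5.48, 5.63 and 5.80. WT GMP arrays read 9.17, 9.01 and 9.36 and Rptor GMP arrays 6.82, 7.24 and 6.81. WT Lin- + M-CSF arrays read 10.03, 9.77, 10.54 and 9.91, and Rptor Lin- + M-CSF arrays 4.96, 4.76, 5.20 and 5.04. The highest Rptor array of any population, a GMP array at 7.24, was below the lowest WT array, a CMP array at 7.42. All 6 group means were separated from their neighbours without overlap of arrays, in the order WT Lin- + M-CSF (10.06), WT GMP (9.18), WT CMP (7.59), Rptor GMP (6.96), Rptor CMP (5.64) and Rptor Lin- + M-CSF (4.99).

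The Fn1 falls in CMPs and GMPs were among the results already known, at -1.95 ± 0.17 and -2.22 ± 0.17 log2 units (SE). In Lin- + M-CSF cells Fn1 fell by 5.07 ± 0.15 (95% interval -5.38 to -4.77, limma adjusted p = 5.17e-16), the lowest fitted change of all 16638 genes tested there. That difference departed from the one in CMPs by -3.12 ± 0.22 (adjusted p = 1.42e-08) and from the one in GMPs by -2.85 ± 0.22 (adjusted p = 5.42e-08). The GMP difference departed from the CMP one by -0.27 ± 0.24, which did not pass (adjusted p = 0.724). The order of populations differed between the genotypes: WT cells were highest in culture, where Rptor cells were lowest. Of the genes next to Fn1 in the RefSeq gene table, Atic, a purine synthesis gene, was tested, and its genotype differences of 0.13, 0.05 and -0.18 did not pass (adjusted p = 0.592, 0.846 and 0.253). Between WT populations Fn1 was higher in GMPs than in CMPs by 1.59 ± 0.17 (adjusted p = 2.61e-06), and in Lin- + M-CSF cells than in GMPs by 0.88 ± 0.16 (adjusted p = 6.85e-05).

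Vcan, the proteoglycan, was bright in 1 group alone. WT Lin- + M-CSF arrays read 8.27, 8.22, 7.95 and 8.43, and Rptor Lin- + M-CSF arrays 3.55, 3.63, 3.98 and 3.71. Fresh WT cells read 3.59, 3.50 and 3.55 in CMPs and 3.81, 3.45 and 3.68 in GMPs. Fresh Rptor cells read 3.74, 3.71 and 3.72 in CMPs and 3.99, 4.20 and 3.97 in GMPs. All 16 arrays outside WT Lin- + M-CSF averaged 3.74, under the filter's log2 3.86, so Vcan was tested only because of the 4 WT cultured arrays. Having passed that way, Vcan had to differ between WT cultured cells and the others, so those differences are given with no p. Detection above background was not assessed.

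In Lin- + M-CSF cells the Rptor minus WT difference of Vcan was -4.50 ± 0.11 (SE). The cultured Rptor arrays (3.72 ± 0.19, SD, n = 4) overlapped those of Rptor CMPs (3.72 ± 0.02, SD, n = 3) and WT GMPs (3.65 ± 0.18, SD, n = 3). WT cultured cells stood 4.67 ± 0.12 above WT CMPs and 4.57 ± 0.12 above WT GMPs. In GMPs the Rptor arrays were higher by 0.41 ± 0.13 (adjusted p = 0.0409), a call lost without Rptor GMP replicate 1 or 2 or WT GMP replicate 2 or 3 (adjusted p = 0.0727 to 0.226) and at levels close to the filter. The CMP difference of 0.18 ± 0.13 did not pass (adjusted p = 0.494). The genotype difference in culture departed from that in CMPs by -4.68 ± 0.17 and from that in GMPs by -4.91 ± 0.17.

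**Figure D2:**
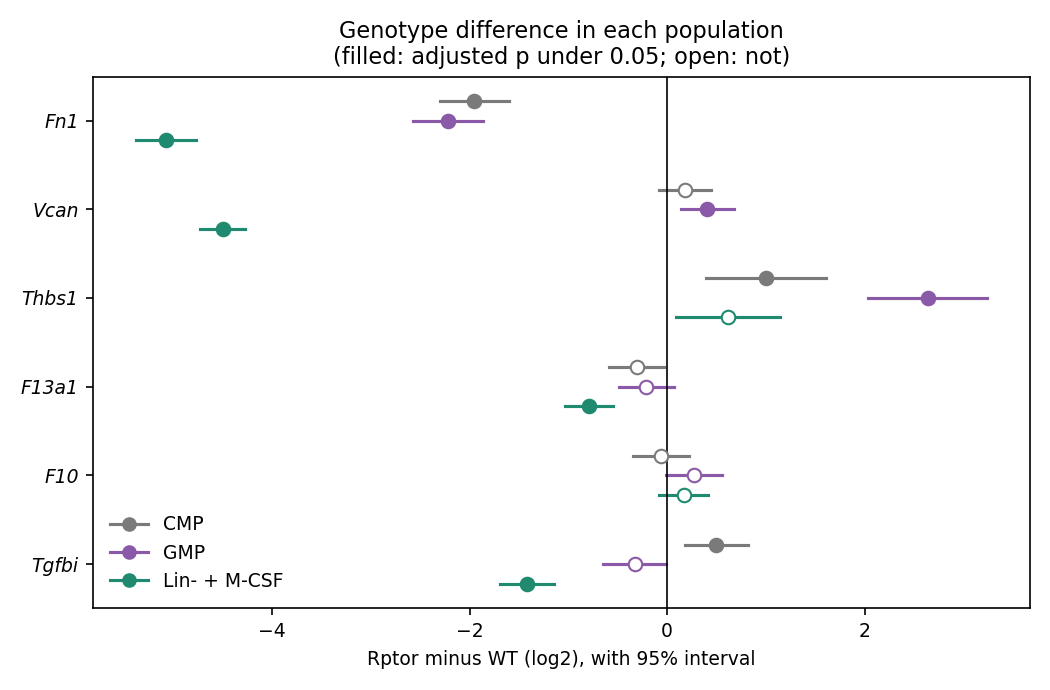
Rptor minus WT difference in log2 units (horizontal axis) of the 6 genes in each of the 3 populations, with the 95% interval of the fit, filled where the adjusted p is under 0.05. Fn1 lies left of 0 in all 3 populations, Vcan and Tgfbi lie far left in cultured cells alone, Thbs1 lies right of 0 with its largest value in GMPs, and the F10 intervals cover 0.

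Thbs1, an activator of latent TGF-beta and ligand of CD36 and CD47, went the other way from Fn1. WT CMP arrays read 6.48, 6.13 and 7.14 and Rptor CMP arrays 7.56, 7.64 and 7.56. WT GMP arrays read 7.34, 6.81 and 7.42 against 9.96, 9.75 and 9.76 on Rptor GMP arrays. In culture WT arrays read 9.33, 9.83, 8.40 and 9.82 and Rptor arrays 10.08, 10.33, 9.60 and 9.82. The genotypes were apart in both fresh populations and overlapped in culture, where WT replicate 3 stood lowest. Rptor GMPs overlapped both cultured groups, although they had not been cultured.

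In GMPs Thbs1 rose by 2.64 ± 0.29 (limma adjusted p = 1.5e-06), place 11 from the highest of all genes tested. In CMPs it rose by 1.00 ± 0.29 (adjusted p = 0.0263), a call lost without any 1 CMP array except WT replicate 3 (adjusted p = 0.0583 to 0.157). In Lin- + M-CSF cells the difference of 0.61 ± 0.25 did not pass (adjusted p = 0.121, unadjusted 95% interval 0.09 to 1.14) and came to 0.30 without WT replicate 3 (adjusted p = 0.398). The rise in GMPs exceeded that in CMPs by 1.63 ± 0.41 (adjusted p = 0.0343), and the difference in culture departed from that in GMPs by -2.02 ± 0.38 (adjusted p = 0.0029). The call between GMPs and CMPs was lost without any 1 of 8 of the 12 arrays; it held without WT CMP replicate 2, Rptor CMP replicate 3, WT GMP replicate 3 or Rptor GMP replicate 3. WT cultured cells were above WT CMPs by 2.76 ± 0.27 and above WT GMPs by 2.16 ± 0.27 (adjusted p = 2.38e-08 and 6.91e-07), and WT GMPs did not pass against WT CMPs (0.61 ± 0.29, adjusted p = 0.215). With array weights the difference between WT GMPs and WT CMPs was 0.57 and passed (limma adjusted p = 0.0473).

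Tgfbi, a matrix protein that binds collagens and integrins and is induced by TGF-beta, rose along the WT series. WT arrays read 8.23, 7.96 and 8.15 in CMPs, 9.09, 9.07 and 9.18 in GMPs, and 9.96, 10.08, 10.26 and 10.07 in Lin- + M-CSF cells. Rptor arrays read 8.58, 8.25 and 9.01 in CMPs, 8.75, 8.78 and 8.82 in GMPs, and 8.45, 8.96, 8.52 and 8.75 in Lin- + M-CSF cells. The 3 WT populations did not overlap, while the 3 Rptor populations all overlapped their neighbours, with means of 8.61 to 8.78.

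Tgfbi fell by 1.42 ± 0.13 in Rptor Lin- + M-CSF cells (limma adjusted p = 2.44e-07), place 58 from the lowest. In GMPs the difference was -0.33 ± 0.15 without overlap of arrays and did not pass (adjusted p = 0.194). It passed with GMP arrays fitted alone (0.0357) and with array weights (0.0127). In CMPs it was higher by 0.50 ± 0.15 (adjusted p = 0.0362), a call lost without any 1 CMP array except Rptor replicate 2 (adjusted p = 0.0503 to 0.24) and with CMP arrays fitted alone (0.0986). Without Rptor CMP replicate 3, the highest of that group, the difference was 0.30. The genotype difference in culture departed from those in CMPs and GMPs by -1.92 ± 0.20 and -1.09 ± 0.20 (adjusted p = 2.15e-06 and 0.00229). GMPs departed from CMPs by -0.83 ± 0.22 (adjusted p = 0.0432), a call lost without any 1 of the 12 arrays other than Rptor CMP replicate 2 (adjusted p = 0.0544 to 0.108). Between WT populations Tgfbi was higher by 1.00 ± 0.15 in GMPs than in CMPs (adjusted p = 0.000177) and by 0.98 ± 0.14 in cultured cells than in GMPs (adjusted p = 4.94e-06).

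F13a1, the fibrin-cross-linking transglutaminase, had the narrowest range of group means among the 6, from 9.55 to 10.81. WT arrays read 10.44, 10.44 and 10.23 in CMPs, 10.86, 10.79 and 10.78 in GMPs, and 9.97, 10.49, 10.28 and 10.62 in Lin- + M-CSF cells. Rptor arrays read 10.23, 9.88 and 10.07 in CMPs, 10.67, 10.58 and 10.55 in GMPs, and 9.54, 9.54, 9.70 and 9.41 in Lin- + M-CSF cells. All 4 cultured Rptor arrays lay below the other 16 arrays.

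F13a1 fell by 0.79 ± 0.12 in Rptor Lin- + M-CSF cells (limma adjusted p = 9.45e-05), place 197 from the lowest. The differences of -0.31 ± 0.13 in CMPs and -0.21 ± 0.13 in GMPs did not pass (adjusted p = 0.173 and 0.386), and neither did the departures of the cultured difference from them (adjusted p = 0.113 and 0.0668). Both departures passed with array weights (0.0389 and 0.0136) and without WT Lin- + M-CSF replicate 1 (0.0171 and 0.00993), and that from GMPs with trended and robust eBayes (0.0309). WT GMPs were above WT CMPs by 0.44 ± 0.13 (adjusted p = 0.0385), a call lost without any 1 of the 6 arrays (adjusted p = 0.0699 to 0.154). WT cultured cells were below WT GMPs by 0.47 ± 0.13 (adjusted p = 0.00303) and did not differ detectably from WT CMPs (-0.03 ± 0.13, 95% interval -0.29 to 0.23).

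F10, the zymogen of the prothrombin-cleaving protease, differed between populations in both genotypes. WT arrays read 7.09, 6.99 and 7.45 in CMPs, 7.92, 7.88 and 8.05 in GMPs, and 9.97, 10.16, 9.66 and 10.21 in Lin- + M-CSF cells. Rptor arrays read 7.07, 7.13 and 7.13 in CMPs, 8.25, 8.18 and 8.23 in GMPs, and 10.04, 10.36, 10.01 and 10.26 in Lin- + M-CSF cells. The 3 populations did not overlap in either genotype. Within GMPs the 3 Rptor arrays all lay above the 3 WT arrays, and in CMPs and culture the genotypes overlapped.

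Rptor minus WT for F10 was -0.06 ± 0.14 in CMPs (95% interval -0.35 to 0.22), 0.27 ± 0.14 in GMPs (-0.02 to 0.56) and 0.17 ± 0.12 in culture (-0.08 to 0.42), with limma adjusted p = 0.881, 0.249 and 0.406. With array weights the GMP difference was 0.30 and passed (limma adjusted p = 0.0165). In the fit with equal array weights its interval reaches 0.56 log2 units. F10 was higher by 0.78 ± 0.14 in WT GMPs than in WT CMPs (adjusted p = 0.00088), by 2.82 ± 0.13 in WT cultured cells than in WT CMPs (adjusted p = 2.12e-13) and by 2.05 ± 0.13 than in WT GMPs (adjusted p = 2.42e-11). Its neighbours in the RefSeq gene table are F7, the factor VII gene, and Proz, the protein Z gene. F7 differed by -0.05 in CMPs, 0.56 in GMPs and -0.45 in culture, and Proz by 0.12, 0.22 and 0.26, none of which passed (adjusted p = 0.0623 to 0.941).

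Counted by comparison, 2 of the 6 genes were called higher and 1 lower in Rptor CMPs, where 6.01% of all genes tested were called higher and 5.44% lower, and the median difference was 0.06 against -0.01 over all genes. In Rptor GMPs 2 were higher and 1 lower, beside 4.37% and 7.53% of all genes, with medians of 0.03 and 0.02. Without Vcan, of 5 genes 2 were higher and 1 lower in CMPs, and 1 and 1 in GMPs. Their medians were -0.06 in CMPs and -0.21 in GMPs. The gene called lower in both populations is Fn1, whose falls there were known when the genes were named. Those calls are therefore no result of the count, and the medians include Fn1. Of all 6 genes, 0 were higher and 4 lower in Rptor Lin- + M-CSF cells, beside 6.82% and 5.73%. The 4 include Vcan, which could only be called lower there; of the other 5 genes 3 were lower, with a median of -0.79 against 0.01 over all genes. Between WT GMPs and WT CMPs 4 were higher and 0 lower, beside 6.65% and 4.35%. Against WT CMPs, 5 of the 6 were higher and 0 lower in WT cultured cells, beside 19.6% and 36.0% of all genes, so that a call there is common. Against WT GMPs, 5 were higher and 1 lower, beside 20.3% and 36.1%. Without Vcan these are 4 and 0, and 4 and 1, of 5 genes. For the departures between populations the counts were 1 higher and 1 lower from CMPs to GMPs (0.667% and 1.83% of all genes), 0 and 3 from CMPs to culture (4.32% and 3.45%), and 0 and 4 from GMPs to culture (2.93% and 1.83%). Without Vcan the last 2 are 0 and 2, and 0 and 3, of 5 genes. The group means of the genotype comparisons come from separate arrays, but their SEs rest on 1 shared estimate of the spread over all 20 arrays. The WT comparisons and the departures also reuse the group means.

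**Figure D3:**
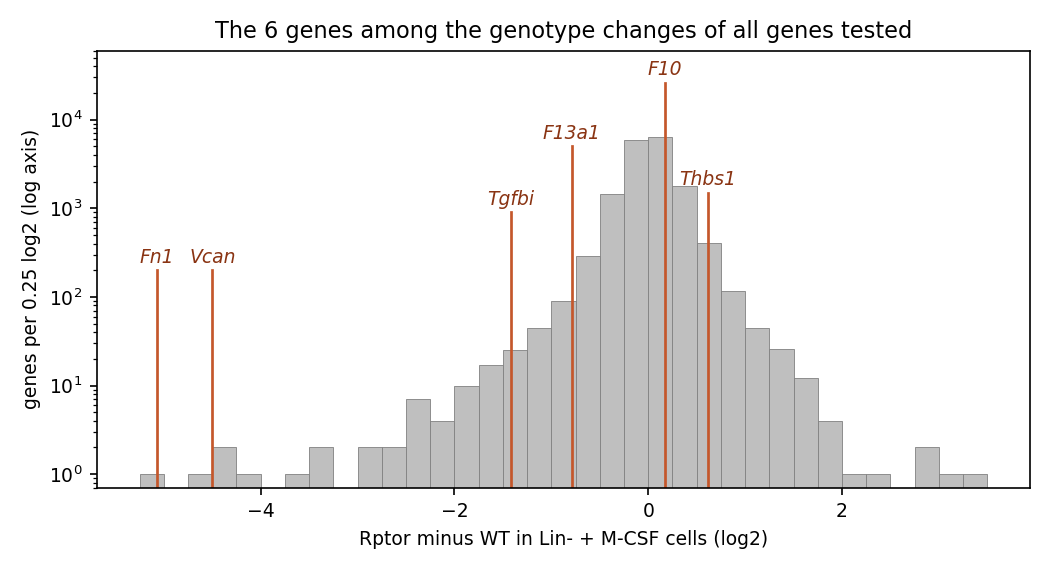
Number of genes (vertical log axis) by Rptor minus WT difference in Lin- + M-CSF cells, in steps of 0.25 log2 units over the 16638 genes tested, with a line for each of the 6 genes. Fn1 at -5.07 and Vcan at -4.50 lie in the lower tail, and F10 at 0.17 lies in the bulk.

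The profiles of the 6 genes over the 6 group means, each centred on its own mean, differed from one another by a root mean square of 0.66 to 2.45 log2 units. F13a1 and Tgfbi were closest (0.66), then Thbs1 and F10 (0.84), and Fn1 and Thbs1 were farthest apart (2.45). Among all named genes tested, the 2 nearest to Vcan were Clec4a1, a C-type lectin (0.18), and Msr1, the class A scavenger receptor (0.19). Nearest to Tgfbi were Ifi30, a lysosomal thiol reductase (0.12), and Ctsc, cathepsin C (0.15). F10 lay nearest to Eif4ebp2, a repressor of cap-dependent translation (0.11), and Bcl6, a transcriptional repressor (0.21). F13a1 lay nearest to Pcsk7, a proprotein convertase (0.12), and Esyt1, an extended synaptotagmin (0.13). Thbs1 had no close match, with Cd33 and Cd300lf, both inhibitory receptors of myeloid cells, at 0.47 each. Nor did Fn1, whose nearest genes Xdh (0.94) and Tlr8 (0.95), the RNA-sensing receptor, shared its order of WT groups with a smaller range.

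Cell type markers moved beside these genes. The counts below stand beside shares over all genes, from the fit of all 20 arrays. Called higher and lower were 6.01% and 5.44% in CMPs, 4.37% and 7.53% in GMPs, and 6.82% and 5.73% in culture. Of 15 monocyte markers 14 were tested, and 0 were higher and 9 lower in Rptor CMPs, 10 lower in GMPs and 11 lower in Lin- + M-CSF cells. Their mean signal per array was 8.65 to 8.75 in WT and 7.81 to 8.03 in Rptor CMPs, 9.10 to 9.13 and 7.97 to 8.13 in GMPs, and 9.84 to 10.09 and 8.98 to 9.05 in culture. Csf1r, the M-CSF receptor, changed by -1.39 ± 0.09 in culture, the transcription factor gene Klf4 by -1.79 ± 0.13, Ms4a6c by -1.77 ± 0.10 and the Fc receptor gene Fcgr1 by -3.62 ± 0.16 (limma adjusted p = 8.41e-09 or lower). The part of these markers in the falls of Fn1, Vcan, Tgfbi and F13a1 was not tested. The median change over the 14 was -0.75 in CMPs, -1.11 in GMPs and -0.70 in culture. Of 12 macrophage markers 11 were tested, and 5 were higher and 0 lower in Rptor CMPs, 3 and 2 in GMPs, and 0 and 2 in culture. They averaged 4.80 to 5.03 per array in WT CMPs and 5.27, 5.43 and 5.80 in Rptor CMP replicates 1, 2 and 3. On the same Rptor arrays Tgfbi read 8.58, 8.25 and 9.01. Replicate 3 was highest in each, while replicates 1 and 2 stood in opposite order. In Rptor CMPs the complement gene C1qb rose by 1.81 ± 0.27, the receptor tyrosine kinase gene Mertk by 1.04 ± 0.10 and the mannose receptor gene Mrc1 by 1.04 ± 0.19, and their part in the Tgfbi and Thbs1 values was not tested. Of 10 granulocyte-macrophage progenitor markers, 1 was higher and 6 lower in Rptor CMPs, 1 and 1 in GMPs, and 2 and 0 in culture. Erythroid markers were higher in Rptor cells, 6, 4 and 6 of 8 tested, with 0 lower, and of 11 mature neutrophil markers 8, 5 and 3 were lower and 0, 2 and 0 higher. Without WT Lin- + M-CSF replicate 3 the counts in culture were 0 higher and 10 lower for monocyte, 2 and 2 for mature neutrophil, 0 and 1 for macrophage, 1 and 0 for progenitor and 6 and 0 for erythroid markers.

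Megakaryocytes and platelets also carry Thbs1, F13a1 and fibronectin. Of 12 markers 9 had a probe set, and their mean signal per array was 6.07 to 6.48 in WT and 6.07 to 6.17 in Rptor CMPs, 5.14 to 5.40 and 5.30 to 5.44 in GMPs, and 5.52 to 5.78 and 5.92 to 6.14 in culture. Of these 9, 1 was called higher in Rptor CMPs, 1 in GMPs and 4 in culture, and 0 lower in each. Over all genes 6.01%, 4.37% and 6.82% were called higher and 5.44%, 7.53% and 5.73% lower, in the same order. The part of these markers in the Thbs1 values was not tested. Marrow stroma makes fibronectin and versican too. Its 12 markers averaged 4.03 to 4.40 on all arrays, with 8 or 9 of them below the array median in each group. Pdgfrb was the brightest, at 8.10 and 8.02 in WT and Rptor CMPs, 7.37 and 7.49 in GMPs, and 5.82 and 6.24 in culture. Of the 6 tested, 0 were called in any genotype comparison.

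Of 16 matrix and adhesion receptors, all tested, 1 was higher and 7 lower in cultured Rptor cells, where 6.82% of all genes were called higher and 5.73% lower. Without WT replicate 3 the counts were 1 higher and 4 lower. The list's median change was -0.03 against 0.01 over all genes. Itgb7, a leukocyte integrin chain whose partner alpha 4 binds fibronectin, fell by 0.95 ± 0.12 (limma adjusted p = 1.5e-05). Cd36, the thrombospondin receptor, fell by 2.06 ± 0.33, and it was 3.98 and 3.72 in WT CMPs and GMPs against 6.64 in WT and 4.59 in Rptor cultured cells. The syndecan gene Sdc3 (-0.86 ± 0.14) and the integrin gene Itgb5 (-0.82 ± 0.14) were lower as well. In CMPs 0 receptors were higher and 1 lower, Sdc1 at -1.09 ± 0.15, beside 6.01% and 5.44% of all genes. In GMPs 1 was higher and 3 lower, beside 4.37% and 7.53%: Cd47 at 0.34 ± 0.11, and Itgb7 (-1.18 ± 0.14), Sdc1 (-0.74 ± 0.15) and Itgb3 (-0.51 ± 0.15).

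Of the coagulation factors and cofactors, 14 of 23 were tested, and 2 were higher and 2 lower in Rptor CMPs, 2 and 1 in GMPs, and 1 and 2 in culture, with medians of -0.03, 0.22 and 0.11. Over all genes the shares higher and lower are 6.01% and 5.44%, 4.37% and 7.53%, and 6.82% and 5.73% in the same order. Without WT replicate 3 they were 1 and 3 in culture. Pros1, the vitamin K-dependent cofactor protein S, fell in all 3 populations, at -0.55 ± 0.12 in CMPs, -0.86 ± 0.12 in GMPs and -1.40 ± 0.11 in culture (limma adjusted p = 0.0041, 5.17e-05 and 1.27e-08). F5, the cofactor of activated factor X, fell in CMPs (-0.92 ± 0.15) and in culture (-0.67 ± 0.13). Vwf, the platelet-tethering factor of endothelium and megakaryocytes, rose by 0.80 ± 0.13 in culture, F8 rose by 0.88 ± 0.14 in CMPs, and Gas6 rose by 0.56 ± 0.16 in CMPs and 0.57 ± 0.16 in GMPs. F12 rose by 0.39 ± 0.12 in GMPs.

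Of the coagulation inhibitors, thrombin receptors and fibrinolysis genes, 16 of 23 were tested, with 1 higher and 3 lower in CMPs, 1 and 3 in GMPs, and 1 and 2 in culture (medians -0.15, -0.02 and 0.05), beside the same shares over all genes. The same 3 genes were called in each population: F2r, a thrombin receptor, rose by 1.02 ± 0.17, 0.80 ± 0.17 and 0.75 ± 0.15, S100a10, a plasminogen-binding partner of annexin A2, changed by -0.86 ± 0.13, -1.92 ± 0.13 and -0.80 ± 0.11, and Plau, urokinase, changed by -0.55 ± 0.16, -0.62 ± 0.16 and -0.57 ± 0.14. Thbd, thrombomodulin, fell by 0.57 ± 0.16 in CMPs, and Anxa5, a phospholipid-binding annexin, fell by 0.93 ± 0.14 in GMPs.

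**Figure D4:**
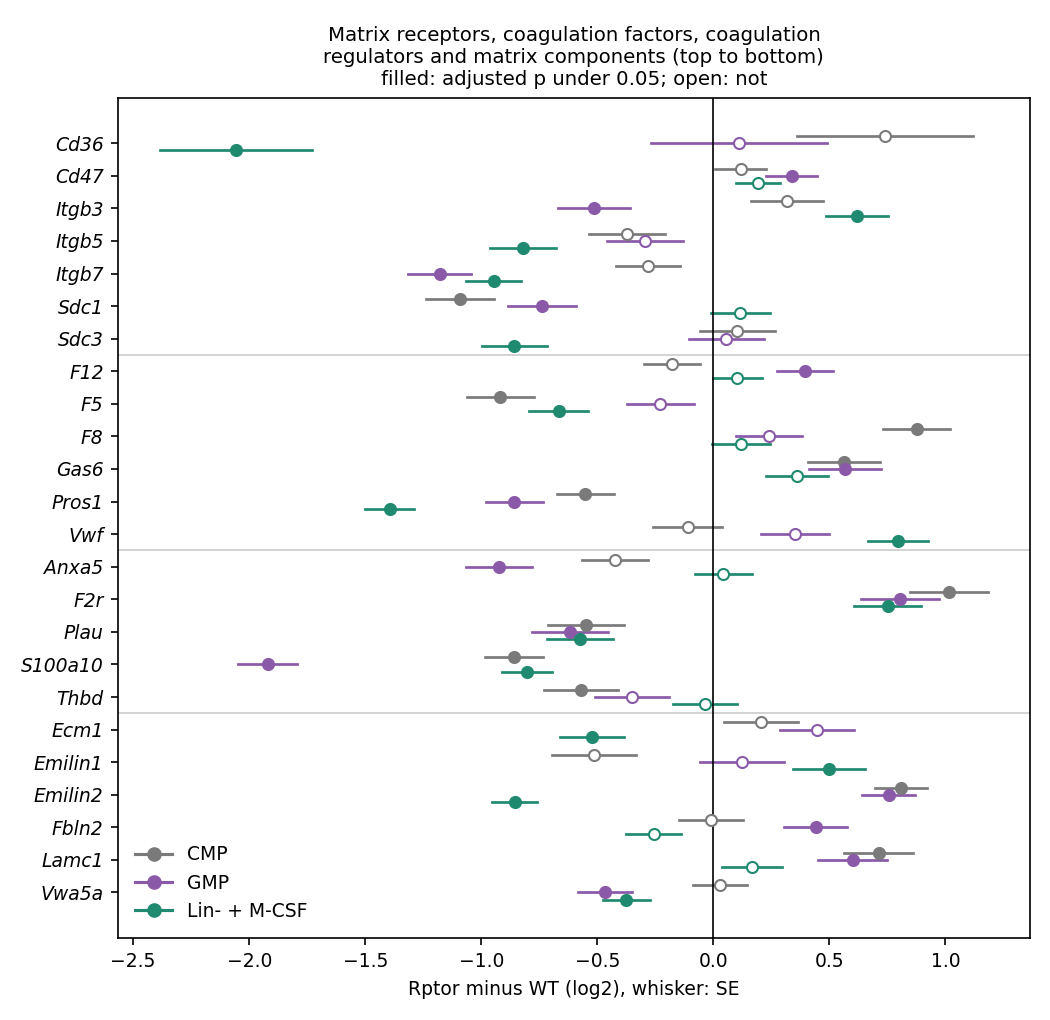
Rptor minus WT difference in log2 units (horizontal axis, whisker SE) of the genes with the smallest p among those called in 4 lists, in each of the 3 populations, filled where the adjusted p is under 0.05. Pros1, S100a10 and Plau lie left of 0 and F2r right of 0 in all 3 populations, and Emilin2 is right of 0 in fresh cells and left of 0 in culture.

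Of 35 other matrix components, 30 were tested, with 2 higher and 0 lower in CMPs, 3 and 1 in GMPs, and 1 and 3 in culture (medians -0.01, 0.14 and 0.01). These counts, and those of the lists that follow, stand beside shares over all genes of 6.01% and 5.44%, 4.37% and 7.53%, and 6.82% and 5.73% called higher and lower. Without WT replicate 3 the matrix components had 0 higher and 3 lower in culture. Emilin2, an elastin-associated glycoprotein, was higher in Rptor CMPs and GMPs (0.81 ± 0.11 and 0.76 ± 0.11) and lower in Rptor culture (-0.86 ± 0.10). Its departures of culture from CMPs and GMPs were -1.67 ± 0.15 and -1.61 ± 0.15 (limma adjusted p = 2.77e-07 and 5.63e-07). Lamc1, a laminin chain, rose by 0.71 ± 0.15 and 0.60 ± 0.15 in fresh CMPs and GMPs, and Ecm1 fell by 0.52 ± 0.14 in culture. Of 25 matrix proteases and inhibitors 21 were tested, with 3 higher and 2 lower in CMPs, 5 and 2 in GMPs, and 4 and 6 in culture (6 and 5 without WT replicate 3). In CMPs Mmp14, a membrane-bound metalloproteinase, rose by 2.13 ± 0.15, Mmp27 by 1.33 ± 0.18 and Ctsl by 1.22 ± 0.14, and Adam17 fell (-0.80 ± 0.11). In GMPs Ctsl and Mmp2 rose (1.16 ± 0.14 and 0.66 ± 0.18), and Mmp9 and Adam17 fell (-1.51 ± 0.36 and -0.61 ± 0.11). In culture Mmp2 and Timp3 rose (1.41 ± 0.15 and 0.92 ± 0.14), and Adam19 and Ctss fell (-0.83 ± 0.12 and -0.72 ± 0.13). Of 18 cross-linking and collagen-processing genes 14 were tested, with 2 higher and 1 lower, 1 and 0, and 2 and 1. The transglutaminase gene Tgm1, of the same enzyme family as F13a1, rose in all 3 populations by 0.85 ± 0.21, 1.31 ± 0.21 and 0.74 ± 0.18. Tgm2 rose by 0.78 ± 0.25 in CMPs and 1.08 ± 0.22 in culture. Lower were Plod1 in CMPs (-0.66 ± 0.19) and P4ha1 in culture (-0.40 ± 0.11). All 20 genes of TGF-beta signalling were tested. In CMPs 2 were higher and 2 lower, in GMPs 0 and 1, and in culture 4 and 2 (3 and 2 without WT replicate 3). The 4 of smallest p in culture went both ways. Smad3 and Tgif1 rose (0.60 ± 0.10 and 0.43 ± 0.11), and Skil and Smad6 fell (-0.76 ± 0.17 and -0.48 ± 0.11).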

How the data were processed

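Total RNA of 20 samples was amplified and hybridized to single-channel arrays, per the labels' protocols. The submitters' processing notes name RMA (background correction, normalization and summary of probes), Partek 6.6 and limma, without roles. The deposited values are log2 signals per probe set, and no detection call or build came with them. Each gene was read from the probe set of highest mean among 23521 of 41345 that name a single gene. Genes with a mean under the 25th percentile (log2 3.86) were left out. One limma 3.58.1 model (R 4.3.3) of 6 group means over all 20 arrays, with 14 residual degrees of freedom, gave 9 comparisons, with Benjamini-Hochberg adjustment over 16638 genes; adjusted p under 0.05 was a call. The procedure was tested on simulated data. The 6 genes and all gene and marker lists were chosen with earlier results of these data known. Called genes named from a list are among the up to 4 of smallest p in a comparison, and not all of these are named. Per gene the 2 nearest profiles are named, and of RefSeq neighbours those tested. For arrays, their number limits the precision. Alternatives were the filter, several probe sets, array weights, trended and robust eBayes, further normalization, fewer populations, a replicate block and leaving out each array.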

Additional observations from a re-analysis of the deposited data

Results flagged for a closer look

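The genotype difference of 4 of the 6 genes differed between populations by the test of that difference in limma (adjusted p under 0.05). Over all genes, 0.667% and 1.83% were called higher and lower from CMPs to GMPs. The shares were 4.32% and 3.45% from CMPs to culture, and 2.93% and 1.83% from GMPs to culture. From CMPs to GMPs it moved by 1.63 for Thbs1 and by -0.83 for Tgfbi. These 2 calls were lost on leaving out any 1 of 8 and of 11 of the 12 arrays. From CMPs to Lin- + M-CSF cells it moved by -3.12 for Fn1, -4.68 for Vcan and -1.92 for Tgfbi. From GMPs to Lin- + M-CSF cells it moved by -2.85 for Fn1, -4.91 for Vcan, -2.02 for Thbs1 and -1.09 for Tgfbi. Vcan, counted among the 4, passed the filter on dim genes only through the WT Lin- + M-CSF arrays. Its values there are a description, and its calls are no result. In the groups of 4 arrays, no array of any of the 6 genes stood apart by Dixon's test, and the groups of 3 were not tested.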

How the results depend on the processing

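Of 477 values of the 6 genes under another setting, 455 kept their direction and their side of the threshold, as did 435 of 480 values with 1 array left out. A change of direction was seen 7 times, each in a difference that passed in neither fit. For F13a1 between WT Lin- + M-CSF cells and WT CMPs the value of -0.03 became 0.012 with array weights, 0.0075 with repeated quantile normalization, 0.031 with arrays centred on their median, 0.092 without WT Lin- + M-CSF replicate 1, 0.0038 without WT CMP replicate 1 and 0.0037 without WT CMP replicate 2, with a range of -0.12 to 0.092 over single arrays left out. For F10 between Rptor and WT CMPs it became 0.072 without WT CMP replicate 3, with a range of -0.16 to 0.072. The causes of these changes were not tested.

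Of the 6 genes, the count called for the departure of GMPs from CMPs was 2, and it became 1 with no filter, with trended and robust eBayes or with repeated quantile normalization, and 0 to 1 with an array left out. With array weights 5 were called in Rptor GMPs in place of 3, where F10 (adjusted p = 0.0165) and Tgfbi (0.0127) were added, and array weights also raised the count over all genes in GMPs to 5328, in CMPs to 3048, between WT GMPs and WT CMPs to 3995, and for the departures of GMPs from CMPs to 1980 and of culture from GMPs to 1330, and lowered it in culture to 1316. With only the populations compared in the fit, 899 genes were called in culture and 654 for the departure of GMPs from CMPs, against 2088 and 416 with all 20 arrays. In Rptor CMPs 1 to 2 of the 6 genes were called with an array left out. Over all genes, leaving out an array gave 1229 to 1767 calls in CMPs, 1183 to 2086 in GMPs, 803 to 1551 between WT GMPs and WT CMPs, 228 to 647 for the departure of GMPs from CMPs and 488 to 842 for that of culture from GMPs.

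Arrays of the same replicate number did not deviate together (correlation -0.34 to 0.12), and 2 of 10 WT arrays correlated best with the Rptor array of their own number. With the replicate block, 0 of the 6 genes were called for the departure of GMPs from CMPs (Thbs1 and Tgfbi, adjusted p = 0.0538 each), and Vcan in GMPs (0.0559) and F13a1 between WT GMPs and WT CMPs (0.0575) did not pass. Vcan in GMPs also missed the threshold with no filter (0.0505), with repeated quantile normalization (0.0509) and with centred arrays (0.053), and under the 50th percentile filter it was not tested. Thbs1 in CMPs missed it with trended and robust eBayes (0.0521). Averaging several probe sets gave the 6 genes no separate value, since each has 1. Signal over background was not assessed.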
